A study of Neurospora crassa with 12 samples.

Results

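The ribosomal A site is where the next codon of an mRNA meets its tRNA, and A-site codon occupancy measures how often footprints place a ribosome there on a given codon. The comparison described here is the absolute codon occupancy of the 61 sense codons in the adat2-silenced strain of Neurospora crassa, a filamentous fungus, against the wild type. It rests on 4 of the 12 libraries of the series: 2 ribosome profiling libraries labelled Siadat2 and 2 of WT, each carrying a value for all 61 codons. A library of each strain was made in each of 2 experiments (replicates 1 and 2), and the libraries were taken by their labels, not by any value.

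In adenosine deamination of tRNA, the enzyme complex that contains the product of adat2 converts the adenosine at the wobble position of the anticodon to inosine. Inosine can pair with C, U or A in the third base of a codon, whereas the unmodified adenosine pairs with U. In eukaryotes this applies to tRNAs of Thr, Ala, Pro, Ser, Leu, Ile, Val and Arg, called the ADAT-related families below. Codons are spelled with T for the U of mRNA, as in the deposited tables.

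The Siadat2 strain (301-6) carries, at the his-3 locus, an inverted repeat of adat2 sequence under the quinic acid (QA) inducible qa-2 promoter, so that dsRNA is made when QA is present. The WT strain is 87-3. Both carry the bd background allele and were grown alike in Vogel's medium with 0.1% glucose and 0.01 M QA, first in plates for 3 days and then with shaking for 1 day, and both received 50 μg/ml of cycloheximide, which holds ribosomes in place, for 10 min before harvest. WT has no construct and received QA as well. Per the paper, the medium of both strains also held arginine, which the labels do not list. The strains also differ in mating type and at his-3, so these differences and silencing cannot be told apart here. Nothing in the labels says how many separate cultures stand behind a library. The p-values measure the spread between these libraries, in part shared over all codons of a fit. For ratios of codons, given below, a single spread was pooled over all ratios.

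Each ribosome profiling library had its own accompanying mRNA-seq, whose mRNA levels enter the occupancies. These mRNA-seq libraries held 1547105 and 2777576 reads for Siadat2 and 961703 and 2361460 reads for WT in replicates 1 and 2. The targeted gene, adat2 (NCU01888, chromosome I from 2138159 to 2142235 of assembly NC12), had 16 and 90 reads, or 10.3 and 32.4 RPM (reads divided by the total of the library and multiplied by 1e6), in the libraries labelled Siadat2, against 8 and 25 reads, or 8.32 and 10.6 RPM, in WT. These counts show no lower adat2 level under the Siadat2 label, whereas the paper reports a marked decrease of adat2 mRNA in this strain by qRT-PCR. The construct repeats part of adat2, so reads of the gene and of the dsRNA cannot be told apart, and the libraries are named by their labels throughout. The paper states how many reads each footprint library had before filtering, but the occupancies carry no number of reads per codon, so their counting error is unknown. In addition, 2 libraries a strain are too few for an exact test of a single codon (the smallest two-sided p is 0.333).

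Occupancy was higher in the libraries labelled Siadat2 at most codons, most of all at the Ile codons ATC and ATT and at the Tyr codon TAC, and lower at 3 of the 6 Ser codons. Across the 61 codons, 51 were higher in both experiments and 6 were lower in both. In 47 codons (77%) both Siadat2 values lay above both WT values, and in 4 (6.56%) they lay below. As deposited, limma with Benjamini-Hochberg adjustment over the 61 codons called 42 codons higher (68.9%) and 3 lower (4.92%). The level of the whole library was higher as well. The median over codons in Siadat2 was 1.19 times that of WT in experiment 1 and 1.20 times in experiment 2, a shift of 0.26 on the log2 scale. Relative to the median codon, that is with each library divided by its own median, limma called 11 codons higher (18%) and 16 lower (26.2%), and 14 codons were called on both scales.

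The calls as deposited depended on which libraries were fitted. Fits without 1 library had no replicate block and took the spread from the strain that kept 2 libraries. Counts of calls in them therefore also depend on that spread. The log2 fold change of ATC was 1.05 without WT replicate 1 and 0.95 without WT replicate 2, and that of TAC (Tyr) 0.72 and 0.75. Without Siadat2 replicate 2, 25 codons were called higher and 3 lower. No codon was called without WT replicate 1 or without WT replicate 2 (limma), where 19 and 18 codons had an unadjusted p under 0.05. Relative to the median codon the counts were steadier, with 10 to 12 higher and 14 to 16 lower whichever library was left out, and 23 to 25 of the 27 calls were kept. Changes of codons are therefore also given below relative to the median codon, and "higher" and "lower" without that phrase refer to the values as deposited.

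**Figure D1:**
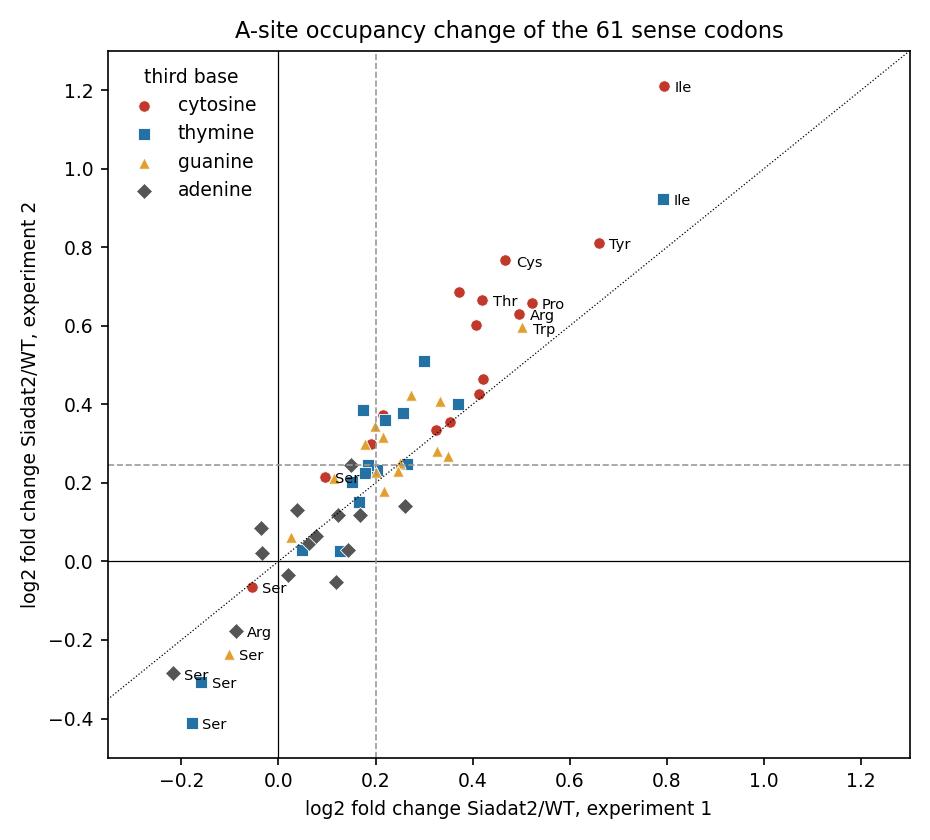
Log2 fold change Siadat2/WT of each of the 61 sense codons in experiment 1 (horizontal axis) and experiment 2 (vertical axis), with 1 point per codon, coloured by the third base. The dashed lines mark the median of the 61 log2 fold changes in each experiment (0.20 and 0.25). They are not the zero of the scale relative to the median codon, which lies at 0.26 in both experiments. The dotted line marks equal change, and amino acid names mark the largest changes, all Ser codons and the Arg codon with a negative change. Most codons ending in cytosine lie toward the upper right, most codons ending in adenine nearer 0, and 5 of the 6 Ser codons below 0 in both experiments.

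The isoleucine codons moved most. ATC had 0.0638 and 0.0792 in Siadat2 replicates 1 and 2, against 0.0368 and 0.0342 in WT. Its log2 fold change was 1.00 (standard error 0.12, limma adjusted p = 0.0182), or 0.74 relative to the median codon (limma adjusted p = 0.0076). ATT had 0.0708 and 0.0787 in Siadat2, against 0.0409 and 0.0415 in WT, a log2 fold change of 0.86 (standard error 0.05, limma adjusted p = 0.0132) and 0.60 relative to the median codon (limma adjusted p = 0.0052). Neither codon overlapped between the strains. ATC was also where the experiments differed most, with 0.79 in experiment 1 and 1.21 in experiment 2 on the log2 scale. The Ile codon ATA had 0.0755 and 0.0766 in Siadat2 and 0.0774 and 0.0722 in WT. These ranges overlapped, its log2 fold change of 0.02 did not pass the test (limma adjusted p = 0.677), and relative to the median codon it was lower by limma (log2 fold change -0.23, adjusted p = 0.0247). The 3 Ile codons lay close together in Siadat2, where the highest was 1.18-fold and 1.03-fold the lowest, and far apart in WT, where it was 2.10-fold and 2.11-fold the lowest.

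The other 3 of the 5 largest changes were those of TAC, TGC and the Pro codon CCC. TAC (Tyr) had 0.0564 and 0.0643 in Siadat2, against 0.0357 and 0.0367 in WT, with a log2 fold change of 0.74 (standard error 0.06, limma adjusted p = 0.0132) and 0.48 relative to the median codon (limma adjusted p = 0.0060). TGC (Cys) had 0.0531 and 0.0663 in Siadat2, against 0.0384 and 0.0390 in WT, with 0.62 (standard error 0.09, limma adjusted p = 0.0203) and 0.36 relative to the median codon (limma adjusted p = 0.0247). CCC had 0.0498 and 0.0565 in Siadat2, against 0.0347 and 0.0358 in WT, with 0.59 (standard error 0.05, limma adjusted p = 0.0132) and 0.33 relative to the median codon (limma adjusted p = 0.0125). All 3 were higher in both experiments on both scales, and no Siadat2 value reached down to a WT value. TAC and TGC belong to families whose tRNAs are not edited by ADAT, and CCC to an ADAT-related family.

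At the other end stood serine and 1 arginine codon. AGT (Ser) had 0.0419 and 0.0414 in Siadat2, against 0.0474 and 0.0550 in WT, with a log2 fold change of -0.29 (standard error 0.08, limma adjusted p = 0.0412) and -0.55 relative to the median codon (limma adjusted p = 0.0060). TCA (Ser) had 0.0452 and 0.0530 in Siadat2, against 0.0525 and 0.0645 in WT, with -0.25 (standard error 0.04, limma adjusted p = 0.0221) and -0.51 relative to the median codon (limma adjusted p = 0.0052). TCT (Ser) had 0.0283 and 0.0290 in Siadat2, against 0.0316 and 0.0359 in WT, with -0.23 (standard error 0.06, limma adjusted p = 0.0361) and -0.49 relative to the median codon (limma adjusted p = 0.0060). These were the only codons called lower as deposited. AGT and TCT did not overlap between the strains, whereas TCA was lower within each experiment but Siadat2 replicate 2 lay above WT replicate 1.

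TCG (Ser) had 0.0368 and 0.0364 in Siadat2, against 0.0395 and 0.0428 in WT, a log2 fold change of -0.17 (standard error 0.05) that did not pass the test as deposited (limma adjusted p = 0.0611) and was -0.43 relative to the median codon (limma adjusted p = 0.0060). CGA (Arg), the most occupied codon of both WT libraries, had 0.0753 and 0.0753 in Siadat2, against 0.08 and 0.0851 in WT, with -0.13 (standard error 0.04, limma adjusted p = 0.0703) and -0.39 relative to the median codon (limma adjusted p = 0.0060). Neither overlapped between the strains. The remaining Ser codons went apart. AGC had 0.0338 and 0.0368 in Siadat2, against 0.0351 and 0.0385 in WT, with a log2 fold change of -0.06 as deposited (limma adjusted p = 0.222) and -0.32 relative to the median codon (limma adjusted p = 0.0076). TCC, the ADAT-related NNC codon of Ser, had 0.0314 and 0.0331 in Siadat2, above 0.0294 and 0.0285 in WT, with 0.16 (limma adjusted p = 0.0650) and -0.10 relative to the median codon (limma adjusted p = 0.185). The AGC and AGT codons are read by a tRNA that ADAT does not edit, so the lower Ser values relative to the median codon fell on both sides of the Ser family.

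Met and Trp have 1 codon each and no synonymous choice. TGG (Trp) had 0.0691 and 0.0730 in Siadat2, against 0.0488 and 0.0483 in WT. It rose by 0.55 on the log2 scale (standard error 0.04, limma adjusted p = 0.0132) and by 0.29 relative to the median codon (limma adjusted p = 0.0127), the largest change among the 15 codons ending in G. ATG (Met) had 0.0522 and 0.0554 in Siadat2, against 0.0440 and 0.0472 in WT. Its log2 fold change of 0.24 (standard error 0.04, limma adjusted p = 0.0203) was the median of the 61 log2 fold changes. Relative to the median codon it was -0.02 (limma adjusted p = 0.787). Neither codon overlapped between the strains, and only that of Trp passed the test relative to the median codon.

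**Figure D2:**
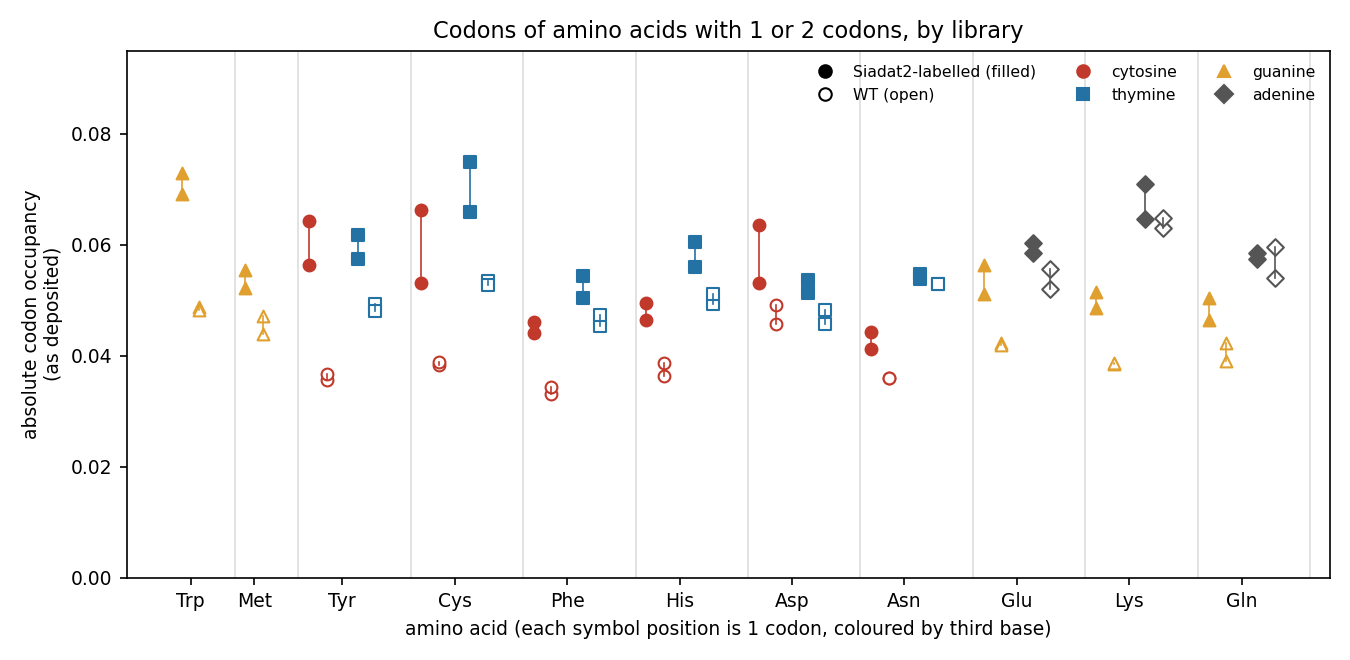
Absolute codon occupancy as deposited (vertical axis, from 0) of the codons of Trp, Met and the 9 amino acids with 2 codons, with 2 filled points for the Siadat2-labelled libraries left of 2 open points for WT at each codon, coloured by the third base. The codon ending in cytosine or guanine was the lower of its amino acid in both WT libraries except for Asp, and AAG and GAG are among the codons whose filled points lie clear above the open ones.

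The 9 amino acids with 2 codons lie outside the ADAT-related families, and 15 of their 18 codons were called higher as deposited, with a median log2 fold change of 0.27, beside 68.9% of all codons and a median of 0.24. Relative to the median codon 3 were called higher, 3 lower and 12 neither, beside 18% of all codons higher and 26.2% lower. In Tyr the T-ended codon TAT had 0.0574 and 0.0617 in Siadat2, against 0.0493 and 0.0481 in WT, with a log2 fold change of 0.29 (standard error 0.05, limma adjusted p = 0.0241) and 0.03 relative to the median codon (limma adjusted p = 0.674). TAC, given above, rose by more, and the ratio of TAC to TAT was 0.983 and 1.04 in Siadat2, against 0.724 and 0.763 in WT (log2 change 0.45, limma adjusted p = 4.1e-05). Both Tyr codons were thus nearly equally occupied in Siadat2 and clearly apart in WT. In Cys, TGT had 0.0659 and 0.0750 in Siadat2, against 0.0535 and 0.0527 in WT, with 0.41 (standard error 0.07, limma adjusted p = 0.0222) and 0.15 relative to the median codon (limma adjusted p = 0.137). The ratio of TGC to TGT was 0.806 and 0.884 in Siadat2, against 0.718 and 0.740 in WT (log2 change 0.21, limma adjusted p = 0.0195). TGC stayed the lower Cys codon in all 4 libraries.

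In Phe, TTC had 0.0442 and 0.0461 in Siadat2, against 0.0332 and 0.0343 in WT, with a log2 fold change of 0.42 (standard error 0.04, limma adjusted p = 0.0132) and 0.16 relative to the median codon (limma adjusted p = 0.0419). TTT had 0.0504 and 0.0544 in Siadat2, against 0.0454 and 0.0474 in WT, with 0.18 (standard error 0.04, limma adjusted p = 0.0315) and -0.08 relative to the median codon (limma adjusted p = 0.226). The TTC to TTT ratio rose by 0.24 on the log2 scale (limma adjusted p = 0.0117), so the C-ended codon led in Phe as in Tyr and Cys. In His, CAC had 0.0465 and 0.0495 in Siadat2, against 0.0364 and 0.0387 in WT, with 0.35 (standard error 0.04, limma adjusted p = 0.0138) and 0.10 relative to the median codon (limma adjusted p = 0.153). CAT had 0.0560 and 0.0606 in Siadat2, against 0.0493 and 0.0511 in WT, with 0.21 (standard error 0.04, limma adjusted p = 0.0241) and -0.04 relative to the median codon (limma adjusted p = 0.496). The change of the CAC to CAT ratio, 0.14 on the log2 scale, did not pass the test (limma adjusted p = 0.104), although its values did not overlap between the strains.

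In Asn, AAC had 0.0412 and 0.0443 in Siadat2, against 0.0361 and 0.0360 in WT, with a log2 fold change of 0.24 (standard error 0.05, limma adjusted p = 0.0245) and -0.01 relative to the median codon (limma adjusted p = 0.861). AAT had 0.0547 and 0.0540 in Siadat2, against 0.0529 and 0.0529 in WT, with 0.04 (standard error 0.04, limma adjusted p = 0.397) and -0.22 relative to the median codon (limma adjusted p = 0.0225). The AAC to AAT ratio rose by 0.21 on the log2 scale (limma adjusted p = 0.0207), and both codons were without overlap between the strains. Asp was the exception to the order of C-ended and T-ended codons. GAC had 0.0532 and 0.0636 in Siadat2, against 0.0458 and 0.0491 in WT, with 0.29 (standard error 0.06, limma adjusted p = 0.0245) and 0.04 relative to the median codon (limma adjusted p = 0.653). GAT had 0.0514 and 0.0537 in Siadat2, against 0.0458 and 0.0483 in WT, with 0.16 (standard error 0.04, limma adjusted p = 0.0333) and -0.10 relative to the median codon (limma adjusted p = 0.152). GAC was no lower than GAT in any of the 4 libraries, and their ratio, 1.04 and 1.18 in Siadat2 against 1.00 and 1.02 in WT, did not pass the test (log2 change 0.13, limma adjusted p = 0.114).

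Lys, Glu and Gln have a G-ended and an A-ended codon, and the G-ended one moved by more in each. In Lys, AAG had 0.0486 and 0.0514 in Siadat2, against 0.0386 and 0.0388 in WT, with a log2 fold change of 0.37 (standard error 0.04, limma adjusted p = 0.0158) and 0.11 relative to the median codon (limma adjusted p = 0.131). AAA had 0.0647 and 0.0710 in Siadat2, against 0.0630 and 0.0649 in WT, with 0.08 (standard error 0.04, limma adjusted p = 0.182) and -0.17 relative to the median codon (limma adjusted p = 0.0431). The AAG to AAA ratio was 0.751 and 0.724 in Siadat2, against 0.613 and 0.597 in WT (log2 change 0.29, limma adjusted p = 0.0035). AAG remained the lower Lys codon everywhere, but its distance to AAA was smaller in Siadat2. In Glu, GAG had 0.0512 and 0.0564 in Siadat2, against 0.0424 and 0.0420 in WT, with 0.35 (standard error 0.06, limma adjusted p = 0.0221) and 0.09 relative to the median codon (limma adjusted p = 0.268). GAA had 0.0585 and 0.0604 in Siadat2, against 0.0521 and 0.0557 in WT, with 0.14 (standard error 0.04, limma adjusted p = 0.0461) and -0.12 relative to the median codon (limma adjusted p = 0.116).

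In Gln, CAG had 0.0464 and 0.0504 in Siadat2, against 0.0390 and 0.0424 in WT, with a log2 fold change of 0.25 (standard error 0.04, limma adjusted p = 0.0202) and -0.01 relative to the median codon (limma adjusted p = 0.898). CAA had 0.0586 and 0.0575 in Siadat2, against 0.0540 and 0.0596 in WT, with 0.03 (standard error 0.06, limma adjusted p = 0.650) and -0.22 relative to the median codon (limma adjusted p = 0.0373). CAA was the codon of this set whose direction differed between the experiments. The ratios of GAG to GAA and of CAG to CAA rose by 0.21 and 0.22 on the log2 scale (limma adjusted p = 0.0207 and 0.0181).

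A ratio of 2 codons within a library does not depend on the level of the library. Over the 16 boxes with a C-ended and a T-ended codon, the median C/T ratio was 0.937 and 1.02 in the libraries labelled Siadat2, against 0.815 and 0.767 in WT. The ratio was below 1 in 11 and 7 of the 16 boxes in Siadat2 and in 14 and 14 in WT. It was below 1 in both WT libraries and above 1 in both Siadat2 libraries for GCC to GCT (Ala), CGC to CGT (Arg) and TCC to TCT (Ser). For Ile, Pro, Tyr and Val it exceeded 1 in Siadat2 replicate 2 only. In a limma fit over 29 ratios, 12 of the 16 C/T ratios were called higher (75%) and none lower. Those not called were the ratios of Ile, His, Asp and Gly. Of the 8 boxes read by ADAT-edited tRNAs 7 were called, with a median log2 change of 0.28, and of the 8 others, the AGC and AGT box of Ser among them, 5 were called, with 0.21. The difference between these sets of boxes was not tested.

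The same fit held 13 ratios of a G-ended to an A-ended codon. Their median was 0.902 and 0.915 in Siadat2, against 0.814 and 0.807 in WT. Of the 13, 8 were called higher (61.5%) and none lower, with a median log2 change of 0.20 over all 13. Among the largest was TTG to TTA (Leu), at 0.902 and 0.912 in Siadat2 against 0.702 and 0.762 in WT, with a log2 change of 0.31 (limma adjusted p = 0.0022). Those not called were CTG to CTA, GTG to GTA, TCG to TCA, GGG to GGA and AGG to AGA. The ratio stayed below 1 in 12 and 11 of the 13 boxes in Siadat2 and in 12 and 12 in WT, so here the distance narrowed and the order was mostly kept.

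Of the C/T ratios, the 3 with the largest change were those of Pro, Tyr and the TCN box of Ser. The ratio of CCC to CCT was 0.992 and 1.10 in Siadat2, against 0.754 and 0.709 in WT, with a log2 change of 0.51 (limma adjusted p = 7.3e-06). The ratio of TCC to TCT was 1.11 and 1.14 in Siadat2, against 0.930 and 0.793 in WT, with a log2 change of 0.39 (limma adjusted p = 2.2e-04). Neither overlapped between the strains. limma gave all 29 ratios the same standard error, 0.08, since their spreads were pooled. The p-values of the ratios therefore treat ratios from the same libraries as independent of each other. With a variance trend the limma adjusted p was 0.0021 for CCC to CCT, 0.0061 for TAC to TAT and 0.0141 for TCC to TCT. It was smaller than without the trend only for AAC to AAT (0.0098), AAG to AAA (6.7e-08) and TCG to TCA (0.203). With a variance trend, 9 C/T and 3 G/A ratios were called, without Siadat2 replicate 2 the counts were 7 and 2, and without WT replicate 2 they were 8 and 4.

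**Figure D3:**
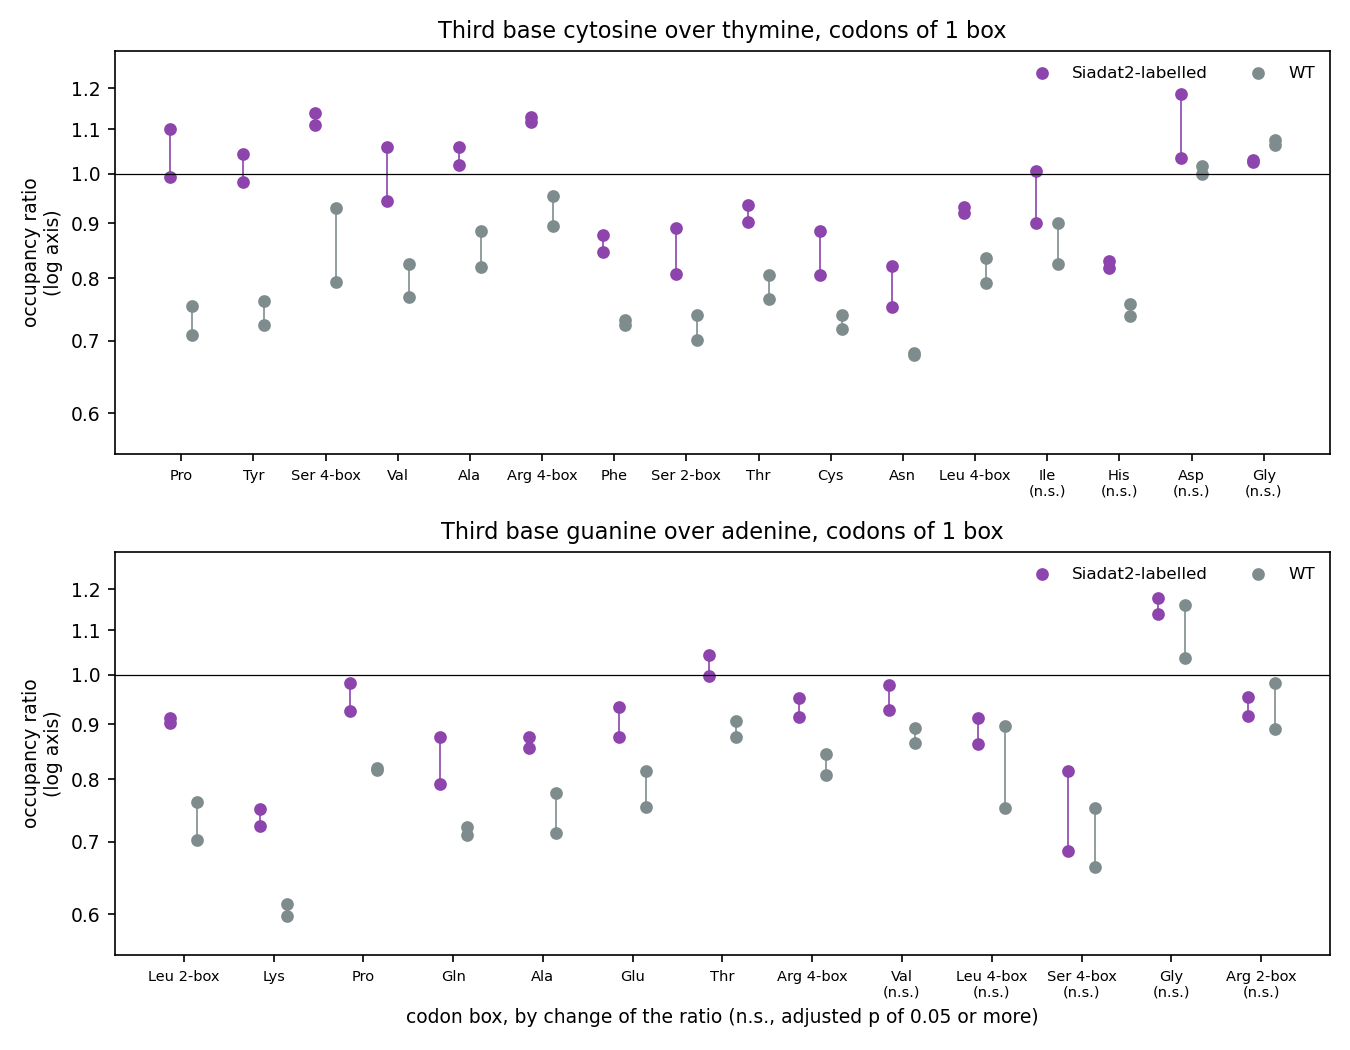
Ratio of the occupancies of 2 codons of the same box that differ in the third base (vertical axis, log scale), cytosine over thymine in the upper panel (16 boxes) and guanine over adenine in the lower panel (13 boxes). Each box has 2 points for the Siadat2-labelled libraries left of 2 points for WT, ordered by the change, and "n.s." marks an adjusted p of 0.05 or more. The Siadat2 points lie above those of WT in most boxes. Those of the cytosine over thymine panel cross 1 in several, for Ile, Pro, Tyr and Val in replicate 2 only.

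The third base ordered the changes in all codons together. Over all 61 codons the median log2 fold change as deposited was 0.24, with 68.9% called higher and 4.92% lower. Relative to the median codon 18% were called higher and 26.2% lower. C-ended codons had a median log2 fold change of 0.47 as deposited (14 of 16 called higher, none lower) and 0.22 relative to the median codon, where 9 were called higher and 1 lower. G-ended codons followed with 0.25 (13 of 15 higher) and T-ended codons with 0.22 (12 of 16 higher, 2 lower), both near the median of all codons. Relative to the median codon these stood at -0.01 and -0.04. A-ended codons came last with 0.06 (3 of 14 higher, 1 lower) and -0.20 relative to the median codon, where none was called higher and 9 lower. Outside the ADAT-related families, and so without any Ser codon, the order was C, G, T, A as well, with medians of 0.35, 0.30, 0.21 and 0.08 over 7, 6, 7 and 4 codons, or 0.10, 0.04, -0.04 and -0.17 relative to the median codon. The first base did not sort the codons in this way: medians ranged from 0.22 for A to 0.29 for T.

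In the amino acids with 3, 4 or 6 codons the same ends recurred. An A-ended codon had the smallest change in Ala (GCA, log2 fold change 0.05), Arg (CGA), Gly (GGA, 0.09), Ile (ATA), Leu (TTA, -0.01), Pro (CCA, -0.01), Thr (ACA, 0.07) and Val (GTA, 0.12). None of these 8 passed the test as deposited, and relative to the median codon, with GCA at -0.20, GGA at -0.17, TTA at -0.26, CCA at -0.27, ACA at -0.19 and GTA at -0.14, all but GGA and GTA were called lower (limma), beside 26.2% of all codons. Arg and Leu each have another A-ended codon, AGA and CTA, which went the other way. Both were called higher as deposited (log2 fold change 0.20 and 0.20, limma adjusted p = 0.0393 and 0.0333). Relative to the median codon neither was called (-0.06 and -0.06). In Ser the smallest change was that of the T-ended codon AGT, below that of TCA. The C-ended codon had the largest change in Ala (GCC, log2 fold change 0.50), Arg (CGC, 0.56), Leu (CTC, 0.44), Thr (ACC, 0.54) and Val (GTC, 0.53), beside Ile, Pro and Ser. The values relative to the median codon were called higher for 4 of them, GCC at 0.25, CGC at 0.31, CTC at 0.19 and ACC at 0.28, while GTC, at 0.27, was called only as deposited (limma adjusted p = 0.0528 relative to the median codon). Gly, whose tRNAs ADAT does not edit, was the exception. GGT had 0.0491 and 0.0541 in Siadat2, against 0.0380 and 0.0410 in WT, a log2 fold change of 0.38 (limma adjusted p = 0.0132), which was 0.13 relative to the median codon and not called there (limma adjusted p = 0.0829). The GGC to GGT ratio was 1.03 and 1.03 in Siadat2, against 1.06 and 1.07 in WT, the only C/T ratio with a negative change (-0.06, limma adjusted p = 0.496).

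By degeneracy, the median log2 fold change was 0.39 for the 2 amino acids with 1 codon, 0.27 for 18 codons of 2-codon amino acids, 0.86 for the 3 Ile codons, 0.23 for 20 codons of 4-codon amino acids and 0.18 for 18 codons of 6-codon amino acids. On the scale of the median codon these were 0.14, 0.01, 0.60, -0.03 and -0.08. The last set holds all 3 codons called lower as deposited, which are Ser codons. By amino acid class, all 5 codons of the aromatic amino acids Phe, Tyr and Trp were called higher as deposited, with a median of 0.42, beside 42 of all 61 codons (68.9%), and 3 of the 5 were called higher relative to the median codon. The 3 codons of Cys and Met and the 4 of Asp and Glu were called higher as deposited, but relative to the median codon 1 of the 3 and none of the 4 was (limma). In the hydroxyl amino acids Ser and Thr, 3 of 10 codons were called higher and 3 lower, and relative to the median codon 1 was higher and 6 lower.

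Averaged over synonymous codons on the log2 scale, 19 of the 20 amino acids were called higher as deposited (95%) and Ser lower (5%) by limma. Ile led, with 0.63 on the log2 scale, followed by Trp (0.55), Tyr (0.51) and Cys (0.51), or 0.37, 0.29, 0.26 and 0.25 relative to the median codon. Ser had geometric means of 0.0358 and 0.0376 in Siadat2, against 0.0384 and 0.0426 in WT, without overlap (log2 fold change -0.14, limma adjusted p = 0.0250, and -0.40 relative to the median codon). Asn (0.14) and Gln (0.14) had the smallest increases. Without Siadat2 replicate 1, Siadat2 replicate 2, WT replicate 1 or WT replicate 2, 14, 5, 4 and 16 amino acids were called higher and none lower. Relative to the median codon no amino acid was called by limma in either direction, while 5 had an unadjusted p under 0.05: Ser, Trp, Asn, Tyr and Ile.

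**Figure D4:**
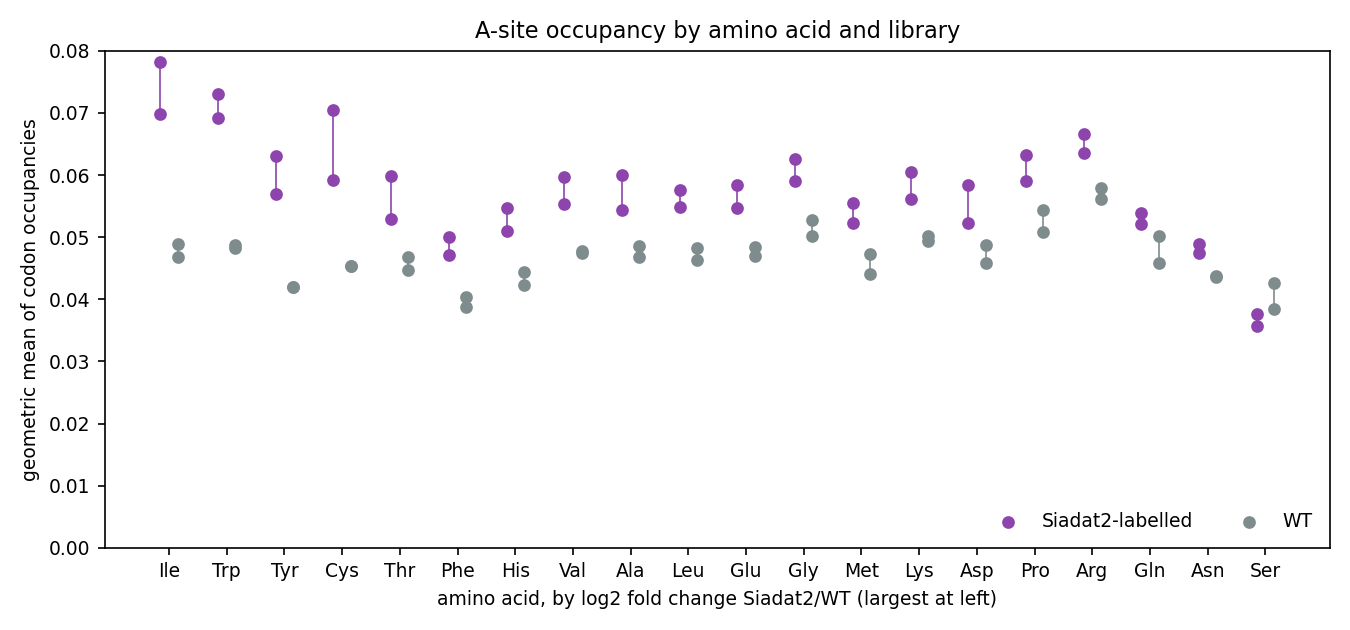
Geometric mean of the deposited occupancies of the synonymous codons of each amino acid (vertical axis, from 0), with 2 points for the Siadat2-labelled libraries left of 2 points for WT, ordered by log2 fold change. Ile, Trp, Tyr and Cys stand widest apart at the left, and Ser, at the right, is the amino acid whose Siadat2 points lie below those of WT.

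The codons also lay closer together in the libraries labelled Siadat2. The standard deviation of log2 occupancy over the 61 codons was 0.32 and 0.32 in Siadat2, against 0.36 and 0.37 in WT. Within an amino acid, the most occupied codon was at the median 1.33-fold and 1.27-fold the least occupied one in Siadat2, against 1.71-fold and 1.65-fold in WT. This spread was narrower in Siadat2 in 17 of the 18 amino acids with several codons in each experiment, the same 17 both times, with Asp as the exception. Of the codons of a pair that was untied in WT, the one lower in WT replicate 1 had the larger log2 fold change in experiment 2 in 27 of 28 pairs, and the one lower in WT replicate 2 had the larger log2 fold change in experiment 1 in 27 of 29.

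Across all 61 codons, log2 occupancy in WT replicate 1 and log2 fold change in experiment 2, which share no library, had a Pearson's r of -0.45 and a Spearman's rho of -0.54. With WT replicate 2 and experiment 1, r was -0.54 and rho -0.61. Without the 6 Ser codons, a set chosen after its values were seen, r was -0.69 and -0.74. Within the 16 C-ended codons r was 0.08 and -0.09 in these comparisons, and within the 16 T-ended codons 0.08 and -0.21. It was 0.0014 and -0.42 within the 14 A-ended codons and -0.07 and -0.31 within the 15 G-ended ones. Without Ser, r was negative within each of these sets as well, at -0.13 and -0.37 for 14 C-ended, -0.22 and -0.44 for 14 T-ended, -0.38 and -0.60 for 13 A-ended and -0.51 and -0.66 for 14 G-ended codons. All 61 values come out of the same 4 libraries and share their mRNA normalization and depth, so these values are descriptions only. Within codons of each ending r was more negative without the Ser codons than with them. With Ser, Spearman's rho ranged from 0.06 (C-ended) to -0.34 (G-ended) for WT replicate 1 and experiment 2. For WT replicate 2 and experiment 1 it ranged from -0.08 (C-ended) to -0.51 (G-ended).

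**Figure D5:**
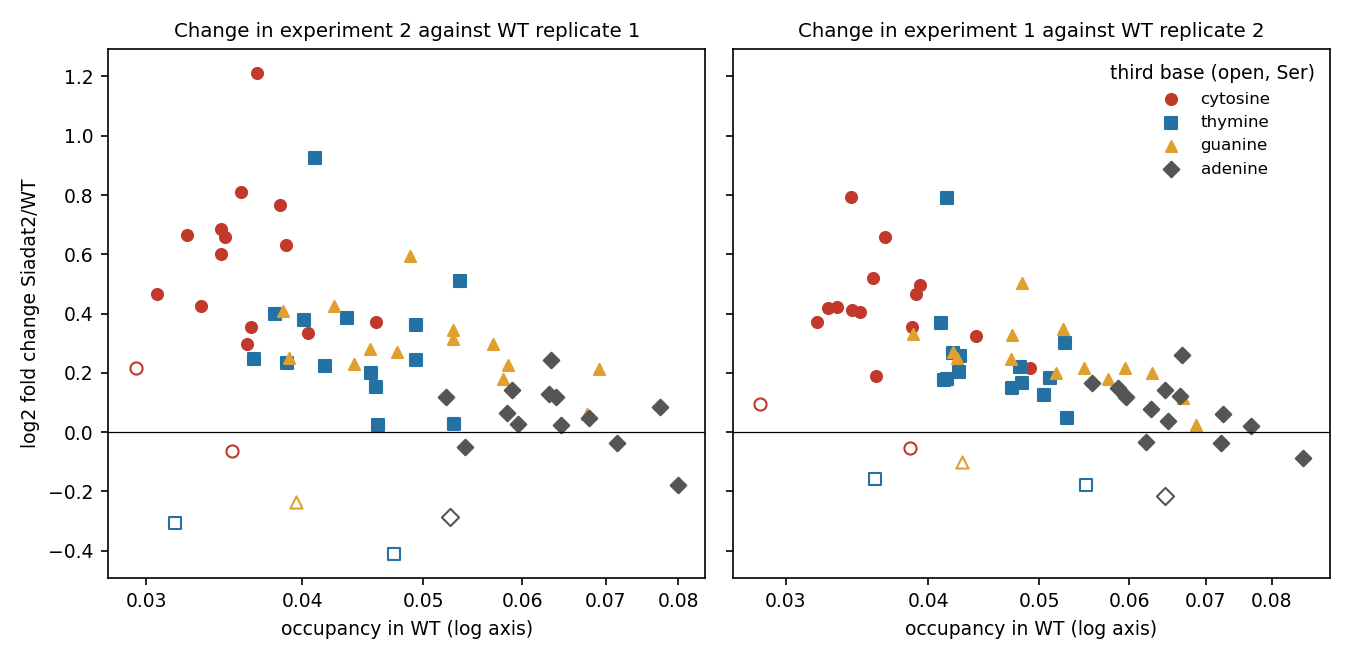
Log2 fold change Siadat2/WT (vertical axis) against the occupancy in WT (horizontal axis, log scale), each taken from different libraries, with 1 point per codon and colours by the third base. Open symbols are the 6 Ser codons, which lie below the other codons of similar WT occupancy. Most codons ending in cytosine lie toward the low end of WT occupancy with larger changes, and most codons ending in adenine toward the high end with smaller changes.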

How the data were processed

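For each ribosome profiling library the authors deposited a signal, the absolute codon occupancy, for the 61 sense codons. Per the methods of the paper, unique footprints of 28 to 32 nt were mapped with Bowtie2, in-frame reads were kept, read positions 16 to 18 were taken as the A site, and the first and last 15 codons of each coding sequence were left out. The frequency of a codon was scaled to all reads of the library, rRNA and tRNA reads included, and to the RPKM of its gene in the accompanying mRNA-seq, then averaged over positions of the codon. A change in rRNA share therefore moves all codons of a library alike. A change in the mRNA level of a gene moves codons by their use in that gene. Division by the median codon and ratios of codons do not necessarily remove the latter. Replicate 1 is deposited to 4 decimals and replicate 2 to 5. No codon was at 0, and no filter or pseudocount was used. The first libraries carry no replicate number and were taken as replicate 1.

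Beside it, the authors deposited a count of reads per coding sequence for the accompanying mRNA-seq, used here only for totals and for adat2. The independent mRNA-seq was not used here.

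Log2 occupancies of all 61 codons were fitted in limma 3.58.1 (R 4.3.3) with strain and replicate number as terms, without a variance trend, and called at a Benjamini-Hochberg adjusted p under 0.05. Log2 ratios of 29 codon pairs and means of 20 amino acids were fitted likewise. Ratios and means reuse the codon values and are not separate evidence. Alternatives were division by the median codon or by CGA, no replicate block, a variance trend, each library left out (without the block) and each experiment alone. The rest was done in Python 3.11.15 (pandas 2.3.3, numpy 2.4.6, scipy 1.17.1, matplotlib 3.10.9). All 61 codons could be named; full statistics are given for the 5 largest and 5 smallest changes, Met, Trp and the 2-codon amino acids, and AGC, TCC, ATA and GGT, fall outside this rule and were picked with their values known. The members, groups and lists were chosen with earlier results of these data known.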

Additional observations from a re-analysis of the deposited data

How the results depend on the processing

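The counts of calls depended on scaling and on single libraries. Against 42 codons called higher and 3 lower as deposited, division by the median codon gave 11 higher and 16 lower. Division by CGA, the codon to which the paper scales its plots of occupancy change, gave 48 higher and 0 lower of 60. Of the amino acids, 19 higher and 1 lower became 0 and 0 with the median codon and 19 and 0 with CGA. Leaving out 1 library at a time gave 0 to 42 codons called higher and 0 to 3 lower, 7 to 13 C/T ratios, 2 to 8 G/A ratios, and 4 to 16 amino acids higher with 0 lower. These fits had no replicate block, and the strain left with a single library was assumed to vary like the other. With a variance trend 3 G/A ratios were called. Relative to the median codon, leaving out 1 library, an alternative added after the data were seen, gave 10 to 12 codons higher and 14 to 16 lower.

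Division by the median codon reversed the sign of 27 codons: GCA (-0.20), GCT (-0.039), AGA (-0.057), AGG (-0.060), CGG (-0.21), AAC (-0.013), AAT (-0.22), GAT (-0.10), CAA (-0.22), CAG (-0.0072), GAA (-0.12), GGA (-0.17), GGG (-0.095), CAT (-0.043), ATA (-0.23), CTA (-0.061), CTT (-0.00083), AAA (-0.17), ATG (-0.019), TTT (-0.082), CCG (-0.044), CCT (-0.18), TCC (-0.10), ACA (-0.19), GTA (-0.14), GTG (-0.019) and GTT (-0.056). It reversed 10 amino acids: Arg (-0.065), Asn (-0.12), Asp (-0.031), Gln (-0.12), Glu (-0.012), Gly (-0.017), Leu (-0.0071), Lys (-0.030), Met (-0.019) and Pro (-0.040). Division by CGA reversed TTA (0.13), CCA (0.12) and AGC (0.072), none of them called as deposited. Leaving out 1 library in turn changed the sign of 5 codons and 4 ratios, none of them called, on the log2 scale: CCA from -0.058 to 0.043, AGC from -0.13 to 0.0075, CAA from -0.038 to 0.10, TTA from -0.034 to 0.022, ATA from -0.025 to 0.075, TCG to TCA from -0.041 to 0.20, AGG to AGA from -0.074 to 0.068, CTG to CTA from -0.014 to 0.24, and GGG to GGA from -0.0042 to 0.16.

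The replicate block changed little. Without it 38 codons were called higher and 3 lower, 12 C/T and 8 G/A ratios higher, and 19 amino acids higher and 1 lower, and relative to the median codon, in a fit added after the data were seen, 13 codons were higher and 18 lower. Deviations of same-numbered libraries from their strain means were not correlated over the 61 codons (Pearson's r = -0.08). This r leaves out a shift of a whole library. The median ratio of replicate 2 to replicate 1 over codons was 1.07 in Siadat2 and 1.04 in WT. The r therefore cannot tell whether same-numbered libraries were made together. The number of reads behind each occupancy is unknown, 2 libraries a strain limit every test, and the causes of these dependences were not tested.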
